A study of Rattus norvegicus with 42 samples.

Results

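CAGE, a method in which a tag is sequenced from the capped 5′ end of a transcript and so marks a transcription start site (TSS), was used here to follow 194 TSS peaks through hindlimb unloading and recovery in the rat. A TSS peak is a cluster of tags on 1 strand in the table that the authors deposited for the whole series, and the 194 peaks are 1.95% of the 9971 in that table. Mature Wistar rats were compared, 21 animals in 7 groups of 3, and both the extensor digitorum longus (EDL, a fast muscle) and the soleus (a slow postural muscle) of each animal were sequenced, in 42 libraries. Compared were active controls, animals unloaded by the tail for 1, 3 or 7 days (D1, D3 and D7), and animals (R1, R3 and R7) that moved freely for 1, 3 or 7 days once a 7-day unloading had ended. The labels name no transgene and no drug, and no pooling of animals is stated. Levels are given as CPM, the tags of a peak scaled to 1e6 tags of the library in peaks.

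The 194 peaks were chosen by their own levels in the control and unloading libraries of both muscles. A peak was taken when the mean of the 9 unloaded EDL libraries was at most 0.67 times the control mean, when that ratio was over 0.8 in soleus, and when the control mean of soleus lay between 0.25 and 4 times that of EDL, with 1 CPM added to each mean and mitochondrial peaks left out. The ratio of unloaded to control level in EDL therefore had a median of 0.570 over the members (0.296 to 0.669), and in soleus of 1.01 (0.802 to 3.75). These values are a description of the choice and are not tested. Of the 401 peaks with the low ratio in EDL, 121 also had a ratio of 0.8 or less in soleus and 86 lay outside the limits on the control levels. Just inside the limit in EDL lay chr19:22281733-22281858 (ratio 0.669), chr8:84965346-84966162 (0.669) and chr6:2669133-2669901 (0.668). Just outside it lay chr10:65329207-65329402 (0.6702), chr11:72378987-72379075 (0.671) and chr11:75145775-75145940 (0.672), so no gap separated the members from their neighbours in this order.

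A gene can start its transcripts at several promoters, and muscle is known to switch promoters and fibre-type genes with use and disuse. Soleus carries body weight and is the muscle that loses most mass in unloading, while EDL is loaded less in standing and is known to lose less. CAGE resolves each promoter separately, so a peak can move while another promoter of the same gene does not. Positions are given on Rnor_6.0, and the peaks are not paired with gene names here, because no annotation or sequence of that build was used. For the same reason the muscle labels were not checked against marker genes. In whole muscle, fewer cells of a type and less RNA per cell cannot be told apart.

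The libraries differed in depth and in where their tags lay, and both touch the members. EDL libraries held 1696341 to 22116123 tags in peaks, and the 3 shallowest were those of D1 animal U24 (1696341), R1 animal U20 (2512470) and D1 animal U25 (2518438). Shallow and deep libraries were also compared within the 14 groups of both muscles. The log2 level was over 0.5 higher in the shallow ones in 38 members (19.6%, against 4.11% of all peaks). It was over 0.5 lower in 18 members (9.28%, against 14.6%). The EDL control mean was under 10 CPM in 69 of the 194 members. The 3 EDL controls were sequenced in lane 1 and no unloaded EDL library was, so that lane and unloading cannot be told apart in EDL. The soleus controls were in lane 1 too, and of the unloaded soleus libraries only that of D1 animal U24 was. All recovery libraries of both muscles were in lanes 4 to 6. Lane and recovery therefore cannot be told apart in any value of recovery against control. The share of a library's tags outside the deposited peaks was 6.01%, 26.9% and 15.3% in the EDL controls U6, U7 and U8, and had a median of 8.02% (4.26% to 17.2%) in the 9 unloaded EDL libraries. In soleus it was 8.69%, 27.6% and 7.38% in the controls of the same animals and had a median of 9.92% (4.10% to 22.9%) under unloading.

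Part of the members moved with that share. Pearson's r was taken for each peak between the deviations of its log2 level and of the share inside peaks from the means of the 14 groups, over 42 libraries that share animals and lanes. It was −0.5 or lower in 55 of the 194 members (28.4%, against 3.77% of all peaks), and its range over the members was −0.957 to 0.517. The summed level of these 55 members was 420 CPM in EDL control U6, 1624 CPM in U7 and 777 CPM in U8. It was 192 to 304 CPM in the 4 unloaded EDL libraries with the lowest shares outside peaks, those of U9, U10, U24 and U25. The 55 and the remaining 139 members are therefore given separately from here on, as a split made after the values were seen. The part of the share outside peaks in the low EDL ratio of the 55 members was not tested.

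**Figure D1:**
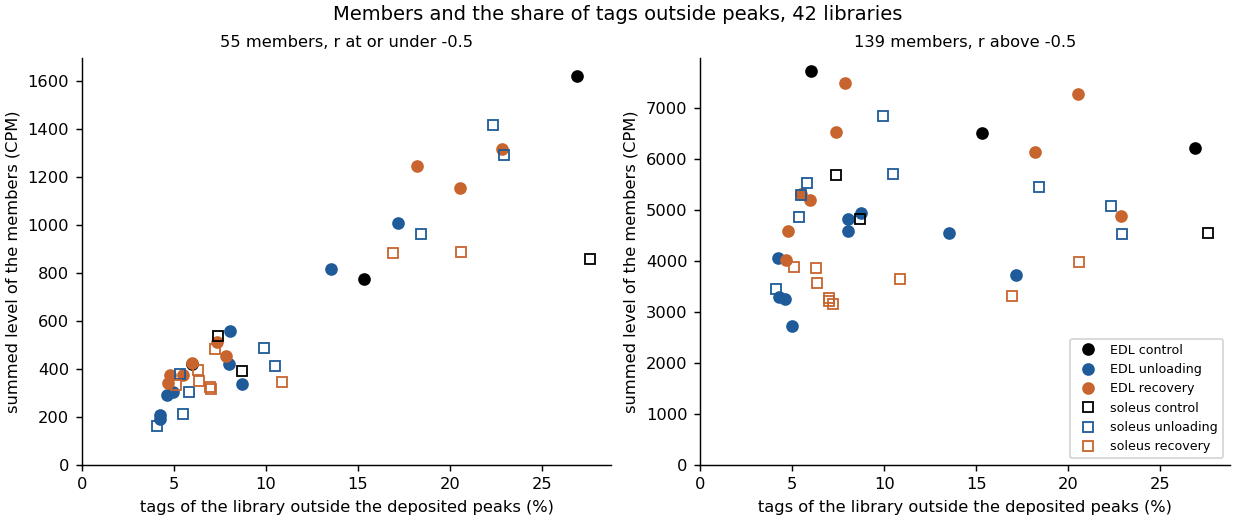
Summed level in CPM of the 55 members whose level moved with the share of tags outside the deposited peaks (left, r at or under −0.5) and of the other 139 (right), against that share in percent, 1 point per library, with EDL as filled and soleus as open symbols. The 55 members sum to 1624 CPM at the highest EDL share (26.9%) and to 192 CPM at 4.27%, while the sums of the other 139 lie between 2721 and 7722 CPM.

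Among the 139 members, the level in EDL was lowest after 1 day of unloading. The median over these members of the ratio to the control mean was 0.436 at D1, 0.640 at D3 and 0.629 at D7. By library, the median log2 ratio was −1.51, −1.76 and −0.66 in the D1 animals U24, U25 and U26, the first 2 of which are shallow libraries. It was −0.59, −0.90 and −0.62 at D3 and −0.65, −1.15 and −0.56 at D7, so that all 9 unloaded libraries lay below the 3 controls (0.23, −0.20 and −0.08). The 55 members gave another course, with median ratios of 0.391 at D1, 0.338 at D3 and 0.756 at D7. Over all 194 members the lowest of the 3 unloading means fell on D1 for 123 (63.4%), on D3 for 53 (27.3%) and on D7 for 18 (9.28%). Over all peaks these shares were 67.2%, 22.1% and 10.7%, so the low at D1 was about as frequent in the table as a whole. Since these libraries chose the members, nothing is read from the size of these values.

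**Figure D2:**
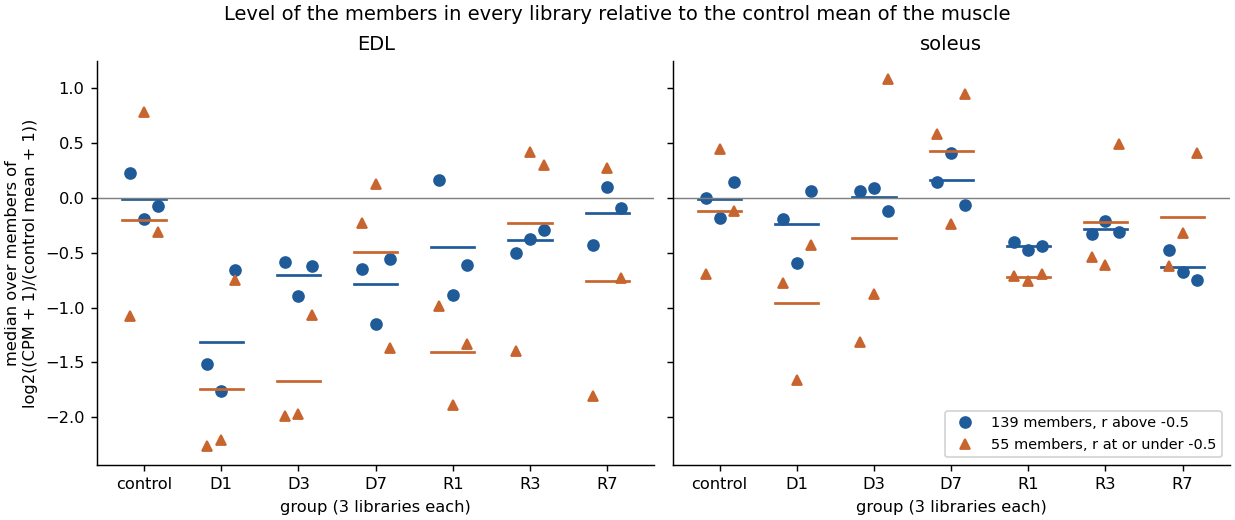
Median over members of log2((CPM + 1)/(control mean + 1)) in every library of EDL (left) and soleus (right), 1 point per library, with the 139 members as circles, the 55 members whose level moved with the share of tags outside peaks as triangles, and lines at the mean of the 3 libraries. In EDL the circles of all 9 unloaded libraries lie below the 3 controls (0.23, −0.20 and −0.08), and at R7 they stand at −0.43, 0.10 and −0.09.

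The choice rested on few libraries for many members. All 9 unloaded EDL libraries lay below all 3 controls in 30 of the 194 members (0.863% of all peaks), which is again the contrast that chose them. When each control and unloading library was left out in turn, 35 of the 194 met the rule every time, and only 4 of these 35 were among the 55 members that moved with the share outside peaks. Without EDL control U7, which had the highest share outside peaks, 124 of the 194 still met the rule. Without both shallow D1 libraries 129 did. A ratio at or under 0.67 at each of D1, D3 and D7 separately was met by 53 members.

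The 10 members with the highest EDL control levels, 186 to 861 CPM, included 1 of these 35. This peak, chr20:18547140-18547443 on the + strand, stood at 362, 241 and 279 CPM in the EDL controls U6, U7 and U8. It was at 103, 58.0 and 153 CPM at D1, 226, 223 and 160 CPM at D3 and 219.8, 118 and 176 CPM at D7, all below the lowest control. In soleus the order was the opposite, with 124, 133 and 147 CPM in the controls and 153 to 236 CPM in the 9 unloaded libraries, which do not overlap. At R1, R3 and R7 the EDL level was 201 to 486 CPM, 245 to 335 CPM and 274 to 488 CPM, within or above the range of the controls but for U20 at R1.

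The highest level of all members belonged to chr10:57278815-57279044 on the + strand. It stood at 1011, 640.2 and 932 CPM in the EDL controls. It was at 412, 395 and 634 CPM at D1, 524, 406 and 608 CPM at D3 and 585, 655 and 702 CPM at D7, so that 2 of the D7 libraries overlapped the controls. Recovery levels were 545 to 719 CPM at R1, 555 to 812 CPM at R3 and 698 to 729 CPM at R7. Soleus held 182 to 257 CPM in its controls and at most 378 CPM in any library, below every one of the 21 EDL libraries.

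The lowest ratio of all members was found at 1 of 3 wide peaks on the minus strand of chromosome 9, which lie within chr9:80150139-80167168 and had ratios of 0.296 to 0.431. The one with the highest level, chr9:80165974-80167168, stood at 188, 479 and 239 CPM in the EDL controls. At D3 it was at 83.1, 58.2 and 73.4 CPM and at D7 at 109, 35.6 and 168 CPM, all under the controls, whereas D1 animal U26 had 312 CPM beside 87.8 and 55.6 CPM in U24 and U25. Levels were 201, 84.4 and 112 CPM at R1, 374, 141 and 262 CPM at R3 and 236, 293 and 451 CPM at R7, so the R7 libraries overlapped the controls and lay above those of R1. The lowest ratio (0.296) was that of chr9:80152259-80154627, with 25.6, 107 and 42.2 CPM in the controls, 7.29 to 43.8 CPM in the unloaded libraries and 50.4, 54.0 and 69.4 CPM at R7. The third, chr9:80150139-80151723, had 8.81, 31.1 and 12.8 CPM in the controls and 2.33 to 19.1 CPM in the unloaded libraries. In all 3 peaks D1 animal U26 was the highest unloaded EDL library and reached into the range of the controls. Their r with the share inside peaks was −0.344 to −0.206.

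**Figure D3:**
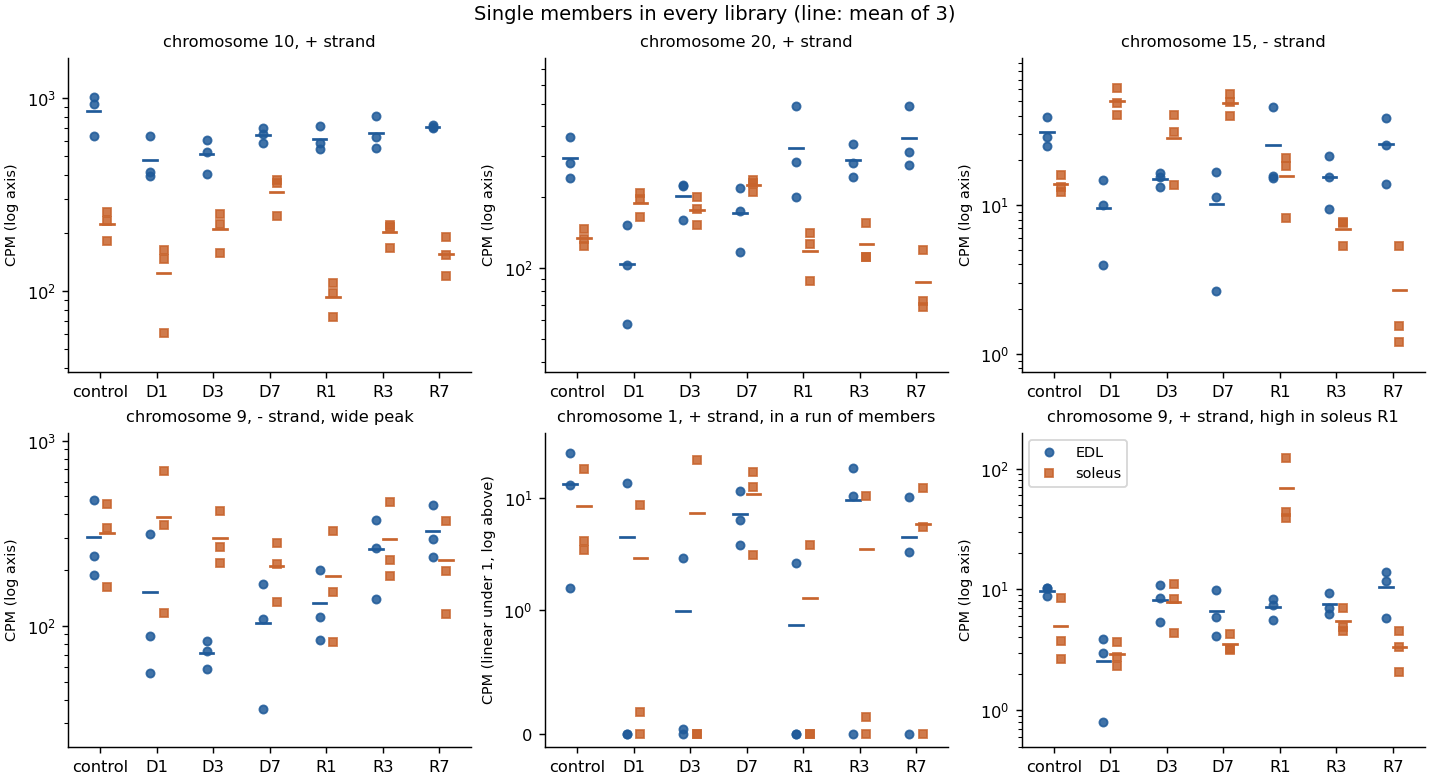
Level in CPM of 6 members in every library of EDL (circles) and soleus (squares), with lines at the mean of 3, on log axes except for the chromosome 1 peak, whose axis is linear under 1 CPM. The chromosome 20 peak is lower in unloaded EDL and higher in unloaded soleus than in the controls, the wide chromosome 9 peak is back among its controls at R7 (236, 293 and 451 CPM), and the + strand chromosome 9 peak reaches 38.8 to 123 CPM in soleus at R1 only.

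A second course was seen where soleus moved the other way. Peak chr15:27818986-27819819 (minus strand) stood at 39.3, 29.0 and 25.04 CPM in the EDL controls and at 2.63 to 16.6 CPM in the 9 unloaded EDL libraries, which do not overlap. Its soleus levels were 15.9, 13.2 and 12.3 CPM in the controls, 48.6, 40.4 and 61.0 CPM at D1, 31.0, 40.3 and 13.7 CPM at D3 and 39.7, 55.9 and 49.7 CPM at D7. Only D3 animal U11 reached into the range of the controls. In soleus at R7 it was at 1.54, 1.21 and 5.33 CPM, below every soleus control. The peak chr10:75457193-75457472 (minus strand) had ratios of 0.366 in EDL and 2.21 in soleus, and 16 of the 194 members had a ratio over 1.5 in soleus.

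On chromosome 1, 7 members on both strands lay within chr1:180645685-180912962, and these were present in some libraries and nearly absent in others. Their summed level was 7.59, 131 and 56.8 CPM in the EDL controls. It was 0.59, 0 and 78.4 CPM at D1, 0.06, 0.05 and 10.99 CPM at D3 and 38.7, 69.7 and 15.2 CPM at D7. The 0 tags of D1 animal U25 allow up to 1.19 CPM (3 tags, counting error only). In recovery the sums were 11.8, 0 and 0 CPM at R1, 0.96, 84.0 and 56.8 CPM at R3 and 0.75, 69.5 and 12.5 CPM at R7. Both muscles were high in control U7 (102 CPM in soleus) and both were at 0 tags in D1 animal U25. In every animal but R3 animal U5, both muscles were under 1 CPM or both held at least 7.59 CPM. Both were under 1 CPM in U24 and U25 (D1), U9 and U10 (D3), U20 and U21 (R1), U4 (R3) and U12 (R7). The near absence was thus not confined to EDL in these animals. In U5 soleus held 0.13 CPM beside 84.0 CPM in EDL. The r of these 7 peaks with the share inside peaks was −0.925 to −0.846.

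In EDL, the recovery libraries had no part in the choice, whereas the D7 libraries were among those required to be low on average, so a higher level after D7 is in part set by the choice. Over the 194 members the median ratio to control went from 0.671 at D7 to 0.698 at R1, 0.799 at R3 and 0.858 at R7, and the number of members with a ratio over 0.8 was 68, 96 and 118, while 88.1%, 85.2% and 93.4% of all peaks were over 0.8. On the log2 scale these medians were −0.52, −0.32 and −0.22 at the recovery phases, beside 0.21, 0.12 and 0.19 over all peaks. With TMM-scaled CPM they were −0.75, −0.47 and −0.46, further from control at each phase and nearly level between R3 and R7. Single libraries also moved them by over 1.5 times. The R1 median was −0.85 without U18, and the R3 median was −0.19 without U4 and −0.21 without control U7. The R7 median was −0.01 without U12, −0.38 without U13, −0.10 without control U7 and −0.13 without control U6. Among the 139 members the median ratios were 0.781, 0.776 and 0.937, and 102 of them were over 0.8 at R7. Among the 55 they were 0.425, 1.03 and 0.732, and the share outside peaks was 4.68% to 7.86% at R1, 5.97% to 22.9% at R3 and 5.48% to 20.5% at R7. All 3 libraries lay below all 3 controls in 30 members at R1 (2.93% of all peaks), 31 at R3 (6.5%) and 5 at R7 (1.39%), and all 3 R7 libraries lay above all 9 unloaded ones in 23 members (1.13%). The controls chose the members as high and the unloaded libraries as low, so values against either are a description from which nothing is read.

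The recovery phases, which the choice did not use, were compared with each other in EDL by edgeR's quasi-likelihood test over 9345 peaks. All 3 EDL libraries of R1 were sequenced in lane 4, and those of R3 and R7 in lanes 5 and 6. Lane and phase therefore cannot be told apart in R3 or R7 against R1. To be called, a peak had to differ more than 2.38-fold with a Benjamini-Hochberg adjusted p under 0.05, and 191 of the 194 members passed the filter on low counts. From R1 to R3 none was called (0.0107% of all peaks), and 35 members were higher (3.38% of all peaks) and 5 lower (2.29%) at an unadjusted p under 0.05. Most of those higher members belonged to the 55 that moved with the share outside peaks. From R1 to R7 none was called either (0.0321% of all peaks), with 17 members higher (2.84%) and 2 lower (2.97%) at that p. Between R3 and R7 again none was called (0.0214%), with 11 higher (1.83%) and 4 lower (3.08%). DESeq2 called 1, 4 and 1 members in these comparisons, beside 0.236%, 0.302% and 0.121% of all peaks.

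Fold changes after R1, where lane and phase cannot be told apart, were above 0 in most members, but not alike in both sets. The median log2 fold change from R1 to R3 was 0.31 over the members and −0.01 over all peaks, and 137 of 191 members (71.7%) were above 0, beside 48.9% of all peaks. These were all 54 tested members that moved with the share outside peaks and 83 of the 137 others. The median was 1.75 over these 54 and 0.10 over the 137 others. From R1 to R7 the medians were 0.93 and 0.24, with 144 of 191 members (75.4%) above 0, beside 50% of all peaks. From R3 to R7 they were −0.80 and 0.18, with 102 of 191 members (53.4%) above 0, beside 50% of all peaks. The 121 peaks low in both unloaded muscles took a like course, so the rise was not particular to the members. Of these 121, 72.7% were above 0 from R1 to R3 (median 0.288) and 84.3% from R1 to R7 (median 0.467). From R3 to R7 53.7% were. The smallest p from R1 to R7 belonged to a peak of the opposite direction, chr9:82570954-82571121 on the minus strand (log2 fold change −1.78, SE 0.36, edgeR adjusted p = 0.103). It had 21.8, 9.15 and 14.3 CPM in EDL at R1, above its controls of 3.35 to 6.98 CPM, and 4.89, 4.5 and 3.85 CPM at R7. The next 3 had positive values, namely chr12:22478763-22478801 (1.90, SE 0.40, edgeR adjusted p = 0.141), chr7:119622501-119623227 (1.27, SE 0.30, adjusted p = 0.192) and chr18:26212730-26212806 (2.05, SE 0.49, adjusted p = 0.2). None of these 4 passed.

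The chromosome 18 peak is 1 of a pair on the minus strand. It stood at 45.6, 41.1 and 57.2 CPM in the EDL controls, and at 12.1, 10.2 and 3.84 CPM at D7, while D1 animal U26 had 93.6 CPM, above the controls. At R1 it was at 11.9, 20.3 and 10.5 CPM, at R3 at 47.7, 36.9 and 55.9 CPM and at R7 at 68.0, 74.5 and 45.8 CPM, so R1 did not overlap R3 or R7. Its neighbour chr18:26213485-26213667 had 5.28, 3.98 and 2.12 CPM at R1 and 11.7, 14.4 and 7.93 CPM at R7, in the same order. Their r with the share inside peaks was −0.106 and −0.070.

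In soleus the members were not low over the 9 unloaded libraries by choice, and their median was lowest at R1. At R1 the median ratio to control was 0.682, followed by 0.863 at R3 and 0.727 at R7, and over all peaks the median log2 ratio was 0.29, 0.12 and 0.00. On the log2 scale the R3 median was −0.21, and it was −0.38 without U16, −0.12 without control U7 and −0.33 with TMM-scaled CPM. All 3 libraries lay below all 3 soleus controls in 72 members at R1 (16.2% of all peaks), 34 at R3 (9.54%) and 60 at R7 (12.1%). Among the 139 members the ratio was 0.757, 0.831 and 0.699 at the recovery phases, the lowest at R7, beside 0.863 at D1. Among the 55 it was 0.596, 0.912 and 0.902, and their lowest ratio was that of D1 (0.547).

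Between recovery phases in soleus, 193 members were tested among 9842 peaks. All 3 soleus libraries of R1 were sequenced in lane 4, and those of R7 in lanes 5 and 6. At R3, animal U4 was in lane 4 and U5 and U16 were in lane 5. R1 and R7 thus share no lane, and a lane term can separate lane from phase here only through R3 animal U4. From R1 to R3, 7 members rose (2.76% of all peaks were called higher) and 8 fell (9.87% lower). From R1 to R7, 7 rose (5.52%) and 15 fell (10.6%), and between R3 and R7 none was called (0.0% of all peaks), by edgeR or by DESeq2 (0.0602% of all peaks by the latter), with 1 member higher (2.48%) and 22 lower (3.41%) at an unadjusted p under 0.05. As shares of the tested members, 3.63% rose and 4.15% fell from R1 to R3, and 3.63% rose and 7.77% fell from R1 to R7. With the sequencing lane as a term 7 members were called from R1 to R3 (768 of all peaks) and 4 from R1 to R7 (300 of all peaks). The median log2 fold change of the members was then 0.225 and −0.282, against 0.579 and 0.503 without that term. Without it the 2 sets differed. From R1 to R3 the median was 0.857 over the 55 members and 0.286 over the 138 tested others. From R1 to R7 it was 1.105 over the 55, with 54 of them above 0, and 0.061 over the others, with 72 of 138 above 0. With library totals in place of TMM (edgeR's scaling for composition) only 1 of 25 called members rose from R1 to R7. Over all peaks 359 of 1828 called ones rose in that fit. The median of all peaks was 0.01 with TMM and −0.29 with library totals. Without the library of R3 animal U4, 9 members were called from R1 to R3 (1045 of all peaks). Without R1 animal U18 or R7 animal U13, 11 or 13 were called from R1 to R7 (1119 or 1358 of all peaks).

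Among the called falls after R1, the smallest adjusted p-values from R1 to R3 were those of 2 peaks that were high in soleus at R1 and lower in every other soleus library. Peak chr9:55049829-55049991 (+ strand) stood at 123, 43.7 and 38.8 CPM in soleus at R1 and at 2.08 to 11 CPM in the other 18 soleus libraries. It fell by 3.55 on the log2 scale to R3 (SE 0.51, edgeR adjusted p = 0.000112) and by 4.10 to R7 (SE 0.53, adjusted p = 5.76e-05). In EDL at R1 the same peak held 8.35, 5.57 and 7.42 CPM, under its EDL controls of 8.77 to 10.4 CPM. Peak chr5:57034415-57034778 (+ strand) had 78.7, 15.9 and 13.7 CPM in soleus at R1 beside 0.53 to 2.39 CPM in the other soleus libraries, and fell by 5.10 to R3 (SE 0.73, edgeR adjusted p = 0.000106). A weaker peak of the same course, chr15:60442378-60442963 on the minus strand, had 3.57, 12.1 and 5.20 CPM in soleus at R1 and at most 0.79 CPM in the other soleus libraries. It is among the called falls to R3 and R7, but it stood above the low-count filter through R1 alone, so no test of it is given. In 4 of the 194 members (2.06%) the 3 libraries of a recovery phase lay on opposite sides of their controls in EDL and soleus, beside 2.31% of all peaks.

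Among the members that rose in soleus from R1 to R3 were chr2:219789154-219790281 (log2 fold change 1.51 ± 0.35 SE, edgeR adjusted p = 0.00496) and chr6:60123950-60124318 (1.52 ± 0.33 SE, adjusted p = 0.00282), both on the minus strand. The first stood at 4.29, 2.83 and 3.49 CPM in soleus at R1 and at 8.40, 7.45 and 11.7 CPM at R3, without overlap. Both are among the 35 members that met the rule without any 1 library. Peak chr7:119622501-119623227 (minus strand) fell in soleus from 17.0, 23.0 and 15.5 CPM at R1 to 2.09, 2.51 and 5.79 CPM at R7 (log2 fold change −2.12, SE 0.42, edgeR adjusted p = 0.00129), while its EDL level was 19.7, 10.8 and 9.14 CPM at R1 and 35.0, 38.5 and 21.1 CPM at R7.

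The muscles were then compared in the 9 recovery animals, whose libraries the choice did not use. In the mean over R1, R3 and R7, 77 of the 194 members were higher in EDL than in soleus (10% of all 9925 tested peaks were called higher) and 3 were lower (12.2%). All 3 lower members and 2 of the 77 passed the low-count filter only through the muscle in which they are high. Of the 182 members that passed it in each muscle alone, 75 were higher (41.2%) and none was lower, beside 9.67% and 5.81% of the 8749 such peaks in all. The median log2 difference was 0.98 over the members and −0.06 over all peaks, and 180 of 194 members were above 0. The control levels had part in the choice, however, and 165 of the 194 members were already higher in the EDL than in the soleus controls. Of the 1644 tested peaks that met the same conditions in soleus, were higher in the EDL controls and were not members, 27.2% were higher in EDL in recovery and 2.68% lower, with a median of 0.76. Of the 121 peaks low in both unloaded muscles, 24.8% were higher. The difference between these shares was not tested.

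Of the 139 members 64 were higher in EDL and 3 lower, with a median of 1.17, and of the 55 members 13 were higher and none was lower, with a median of 0.59. The 3 lower ones are again those that passed the low-count filter through soleus alone. Both counts of higher members include a member that passed it through EDL alone. Of those 35 members 20 were higher. With the animal as a replicate block, which pairs both muscles of an animal, 78 members were called, 75 of them higher in EDL. Over all 9925 peaks that fit called 2228, of which 1008 were higher. With library totals in place of TMM 55 were called, 52 of them higher, beside 2532 of all peaks, 722 of them higher. The median of all peaks was −0.06 with TMM and −0.42 with library totals. Without each recovery library in turn 70 to 84 members were called, beside 2092 to 2411 of all peaks.

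**Figure D4:**
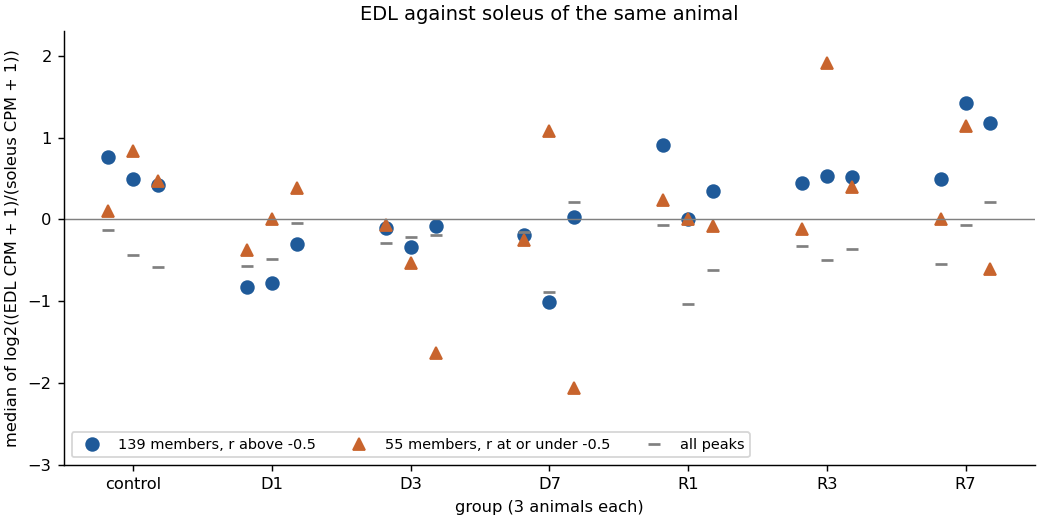
Median over peaks of log2((EDL CPM + 1)/(soleus CPM + 1)) in each of the 21 animals, with the 139 members as circles, the 55 members whose level moved with the share of tags outside peaks as triangles and all peaks as grey dashes. The circles stand at 0.43 to 0.76 in the controls, at −1.02 to 0.02 in the unloaded animals and at 0.00 to 1.42 in the recovery animals.

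Within animals the difference between the muscles varied in the members and, from animal to animal, over all peaks too. The median log2 difference between EDL and soleus over the 139 members was 0.76, 0.49 and 0.43 in the controls U6, U7 and U8 and −1.02 to 0.02 in the 9 unloaded animals, which chose the members. It was 0.91, 0.00 and 0.35 at R1 (animals U18, U20 and U21), 0.44, 0.53 and 0.52 at R3, and 0.49, 1.42 and 1.17 at R7. Over the 55 members it was 0.24, 0.00 and −0.08 at R1, −0.11, 1.91 and 0.40 at R3 and 0.00, 1.14 and −0.60 at R7, without a common sign. Over all peaks it was −0.131, −0.432 and −0.582 in the controls and −0.893 to 0.213 in the unloaded animals. In the same recovery animals it was −0.072, −1.036 and −0.616 at R1, −0.327, −0.495 and −0.363 at R3 and −0.548, −0.063 and 0.207 at R7. The part of these shifts over all peaks in the values of the members was not tested.

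The smallest adjusted p of the members belonged to chr10:57278815-57279044, with a log2 difference of 2.58 (SE 0.17, edgeR adjusted p = 2.06e-09). Its EDL levels in recovery were 545 to 812 CPM and its soleus levels 72.9 to 221 CPM, without overlap. The next was chrX:72378460-72379074 on the minus strand (4.13, SE 0.31, edgeR adjusted p = 1.25e-08). It held 4.23 to 11.3 CPM in EDL and at most 1.21 CPM in soleus during recovery. Peak chr7:144058534-144058777 on the + strand, which passed the filter through EDL alone, had 6.39 to 11.8 CPM in EDL and at most 1.68 CPM in soleus. The 3 members called lower in EDL, which passed through soleus alone, are given by their levels only, at 0 to 1.80 CPM in every EDL recovery library. Of these chr5:57034415-57034778 and chr17:12265221-12265448 had their highest soleus levels at R1, and chr2:197813816-197813935 had 7.52 to 15.5 CPM in the soleus controls and 1.12 to 5.57 CPM in recovery.

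The members included more wide peaks than the table as a whole, as a description. A width of at least 500 nt was found in 35 members (18.04%, against 10.8% of all peaks), and in 14 of the 55 and 21 of the 139. Narrow peaks of at most 100 nt were slightly more frequent too, with 32 members (16.5%, against 13.6% of all peaks). In the EDL controls, over peaks with at least 50 tags, the middle 80% of the tags spanned a median of 59 nt in 187 members and 47 nt in 8269 peaks, and the dominant position took 24.1% and 23.6% of the tags. The dominant position was the same in control and unloaded EDL in 131 of 187 members (70.1%, against 78.3% of all peaks) and lay over 10 nt away in 29 (15.5%, against 12.7%). The strands were even, with 102 members on the + strand.

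The nearest peak on the same strand lay within 10000 nt of 58 members (29.9%, against 31.6% of all peaks), and for 11 of these it was a member itself. The unloaded to control ratio in EDL of these nearest peaks had a median of 0.786 over the 47 that are no members, against 1.07 around all peaks. Runs of at least 3 members with gaps of at most 200000 nt numbered 5. Beside those on chromosomes 1 and 9 given above, 3 members lay within chr1:80325667-80331843 (r −0.482 to −0.347) and 3 within chr9:81816739-82008664 (r 0.009 to 0.202). Another 3 lay within chr5:6372990-6374674 on both strands, of which chr5:6372990-6373380 and chr5:6373854-6374674 share the minus strand. The last 3 had an r with the share inside peaks of −0.891 to −0.727. Their unloaded to control ratios in EDL were 0.481 to 0.641.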

How the data were processed

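CAGE libraries of EDL and soleus from 21 rats were used. The authors deposited a table of raw counts of tags per peak for all 42 libraries and the counts at each start position in each library, and 42 normalized columns beside them were not used here. The submitters' processing notes name Trimmomatic 0.38, BWA, HISAT2 and Rnor_6.0, and the order of these steps and the tool that made each file are not settled here. No step that counts molecules is stated, so that intervals and limits cover counting error only. Libraries held 1778712 to 23103236 tags, of which 72.4% to 95.9% lay in peaks, and the sums over start positions equalled the table in all 9971 peaks.

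The members and lists were chosen with earlier results of these data known. CPM was the count over the column sum. Levels against control, which used the libraries of the choice, were not tested. Recovery phases were compared with edgeR 4.0.16 in R 4.3.3 (quasi-likelihood test, TMM, filterByExpr, all 21 libraries of a muscle in 1 fit), and the muscles in the 18 recovery libraries. DESeq2 1.42.0, other scalings and filters, and fits without each library were alternatives. On simulated counts with a log2 change of 2.5, 177 of 200 changed peaks were recovered with 18 wrong calls for EDL R3 against R1 (8824 peaks), and 183 of 200 with 4 wrong calls for EDL against soleus (9945 peaks). The former used the R1 and R3 libraries alone, and only peaks with higher counts were changed. Changes as small as the member median from R1 to R3 in EDL (0.31) were not simulated, so the power for them is not given. Replicate numbers mark both muscles of 1 rat. The correlation of their deviations was over 0.1 in 7 of 9 recovery animals (−0.142 to 0.498, median 0.256, 9925 peaks), and the fit with this block is given beside the result.

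Peaks were named by rule: the 10 members with the highest EDL control level, the 8 with the lowest ratio among those of at least 10 CPM, up to 3 called members of each direction with the smallest adjusted p in each comparison, those nearest the limit, and members within 1000 nt of another member on their strand. The peaks described are a selection from these. The runs on chromosomes 1, 5 and 9 and the peaks chr9:82570954-82571121, chr12:22478763-22478801 and chr15:60442378-60442963 were picked after their values were seen. Marker lists could not be applied without gene names.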

Additional observations from a re-analysis of the deposited data

Results flagged for a closer look

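Over the 194 members 4 (2.06%, beside 2.31% of all peaks) lay on opposite sides of their controls in EDL and soleus at a recovery phase, and 3 of them are among the peaks named by rule. In these 3, at 1 recovery phase each, all 3 EDL libraries of that phase lay on one side of the EDL controls and all 3 soleus libraries on the other side of theirs, and the difference between the muscles' changes was not tested. Peak chr9:55049829-55049991 (+ strand) at R1 differed most, with a log2 change from control in EDL minus that in soleus of −3.95. It held 8.35, 5.57 and 7.42 CPM in EDL against 10.2, 10.4 and 8.77 CPM in the controls, and 123, 43.7 and 38.8 CPM in soleus against 3.75, 8.47 and 2.63 CPM. For chr18:26213485-26213667 (minus strand) at R1 this difference was −1.31. EDL held 5.28, 3.98 and 2.12 CPM against 8.29, 7.01 and 8.04 CPM in the controls, and soleus 6.99, 6.51 and 7.74 CPM against 3.49, 5.37 and 6.09 CPM. For chr7:119622501-119623227 (minus strand) at R7 it was 1.77, with 35.0, 38.5 and 21.1 CPM in EDL against 20.3, 18.9 and 18.8 CPM, and 2.09, 2.51 and 5.79 CPM in soleus against 7.50, 11.2 and 6.92 CPM. The controls had part in the choice of these peaks.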

How the results depend on the processing

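Among 179 values from alternatives, none of the medians against control had the opposite sign to its main value. The other values are counts, which cannot change sign. Median log2 fold changes of the members between phases were not among these, and some changed sign. In soleus from R1 to R7 the median was 0.503, and −0.282 with a lane term. From R3 to R7 it was −0.081 in soleus and 0.048 without U16, and 0.017 in EDL and −0.103 without U4. DESeq2 called 1 member in EDL R3 against R1, 4 in R7 against R1 and 1 in R7 against R3, where edgeR called none. In soleus, a lane term gave 7 called members for R3 against R1 (15 without it) and 4 for R7 against R1 (22 without it), and the 9 recovery libraries alone gave 11 for the latter. Over all peaks the lane term gave 768 calls (1243 without it) and 300 (1584 without it), and the 9 libraries alone gave 1395. Leaving out single libraries gave 9 to 14 and 11 to 20 in these comparisons. A lane term could not be fitted for R3 or R7 against R1 in EDL and was not run there. The number of peaks meeting the rule was 307 with TMM-scaled CPM (177 of the 194 shared). It was 137 with the library sizes of the sample labels in place of the tags in peaks (121 shared). Without single libraries it was 165 to 246, and it was 53 when each unloading day was required. The last was an alternative chosen after seeing the data, as was leaving out both shallow D1 libraries (223 peaks, 129 shared). With medians in place of means 289 peaks met the rule and 105 of the 194 were shared.

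The median log2 ratio to control in soleus was −0.55 at R1 and −0.46 at R7. It was −0.78 and −0.41 with TMM-scaled CPM, −0.48 and −0.40 with a pseudocount of 2, and −0.70 to −0.46 and −0.52 to −0.36 without single libraries. In EDL it was −0.75, −0.47 and −0.46 at R1, R3 and R7 with TMM-scaled CPM (−0.52, −0.32 and −0.22 without it), and the values without single libraries were −0.85 to −0.43 at R1, −0.36 to −0.19 at R3 and −0.38 to −0.01 at R7. With the animal as a replicate block, the count of members called between the muscles was 78 (2228 over all peaks). The causes of these changes were not tested. At R3 in soleus the median was −0.21, against −0.33 with TMM-scaled CPM, −0.19 with a pseudocount of 2 and −0.38 to −0.12 without single libraries. With 3 animals a group and down to 2512470 tags in the EDL libraries of R1 and R3, the median standard error of a member's log2 fold change was 0.46 between R1 and R3.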
